A study of Caenorhabditis elegans with 2 samples.

Results

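The 10 genes of Caenorhabditis elegans described here are egl-27, lin-40, let-418, chd-3, hda-1, lin-53, dcp-66, mep-1, cbp-1 and zfp-1. They encode subunits and partners of histone deacetylation and acetylation complexes and, in the case of zfp-1, an AF10-like PHD finger protein. They are 10 of the 19973 protein-coding genes of the Ensembl release 115 annotation. They were chosen by name with earlier results of these data known, and the values used were summit positions and signal (column 7) in the lists described below, so counts of peaks at them are a description and carry no test. For each gene, every deposited interval was taken whose summit lay in the gene or within 5 kb of either end, or within 12 kb for egl-27. All of them map to ce11 (WBcel235).

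The data are chromatin immunoprecipitation and sequencing (ChIP-seq) of CEH-16, the engrailed-class homeodomain factor of the worm, carried as an eGFP fusion. Worms of the strain OP82, the sexes pooled, were taken whole at the L2 stage for both libraries. Their genotype is unc-119(tm4063) III with the transgene wgIs82. They are biological replicates 1 and 2 of 1 group. Both carry the unc-119 allele and the transgene, no untagged group is among these samples, and the control experiment that the labels name as possible is not used here. Whole animals were used, so a peak cannot be placed in a cell type, and peak lists hold no expression values against which the stage could be checked.

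The nucleosome remodelling and deacetylase complex (NuRD) joins a Mi-2 class remodelling ATPase with a histone deacetylase, MTA proteins, an RbAp histone chaperone and a p66 protein. In worms it takes part in vulval fate, germline and soma distinction and embryonic patterning. EGL-27 is an MTA-related protein known for roles in cell migration and in the polarity of asymmetric divisions. CBP-1, the CBP/p300 acetyltransferase, adds the acetyl marks that HDA-1 removes, and ZFP-1 is the AF10-like PHD finger protein that works with the DOT1 methyltransferase.

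Sequence at 6 summits is shown because these include the strongest peaks of egl-27, cbp-1 and zfp-1 and the sites where the homeodomain core lay nearest a summit. Each run is the 201 bases centred on the summit of a peak, from the plus strand of the RefSeq WBcel235 genome, 5′ to 3′. Capitals mark every match, on either strand, to the homeodomain core, which is TAATTA or else TAATTG or else CAATTA, and to GAGAGA (a GA repeat, read as TCTCTC on the other strand), GATAAG (known from binding sites of the GATA factors) or CACGTG (an E-box). No window shown overlaps an exon of a protein-coding gene, while those of the upstream and first intronic egl-27 peaks overlap exons of noncoding RNA genes.
egl-27 upstream peak, chrII:6827482-6827682: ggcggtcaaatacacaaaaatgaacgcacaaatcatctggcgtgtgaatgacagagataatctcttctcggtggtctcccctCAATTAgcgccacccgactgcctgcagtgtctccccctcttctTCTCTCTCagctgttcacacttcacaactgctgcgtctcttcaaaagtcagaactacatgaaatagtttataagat
egl-27 first intronic peak, chrII:6835614-6835814: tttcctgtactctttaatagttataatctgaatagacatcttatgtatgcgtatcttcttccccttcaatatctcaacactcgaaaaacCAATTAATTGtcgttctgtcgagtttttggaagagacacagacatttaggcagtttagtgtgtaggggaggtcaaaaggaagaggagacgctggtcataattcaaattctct
egl-27 second intronic peak, chrII:6838479-6838679: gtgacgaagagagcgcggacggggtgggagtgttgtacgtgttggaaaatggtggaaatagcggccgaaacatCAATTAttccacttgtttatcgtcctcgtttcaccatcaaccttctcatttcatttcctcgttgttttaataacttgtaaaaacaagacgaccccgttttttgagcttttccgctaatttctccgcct
cbp-1 upstream peak, chrIII:9765500-9765700: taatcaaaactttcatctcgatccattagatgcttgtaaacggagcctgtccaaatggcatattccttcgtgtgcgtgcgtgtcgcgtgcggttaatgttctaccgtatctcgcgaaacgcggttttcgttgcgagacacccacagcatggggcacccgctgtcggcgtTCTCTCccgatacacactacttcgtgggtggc
zfp-1 strongest intronic peak, chrIII:8794838-8795038: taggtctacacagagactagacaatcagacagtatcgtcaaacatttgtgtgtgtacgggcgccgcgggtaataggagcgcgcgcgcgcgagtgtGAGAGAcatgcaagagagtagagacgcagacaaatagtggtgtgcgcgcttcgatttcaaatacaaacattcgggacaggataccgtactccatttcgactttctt
zfp-1 last intronic peak, chrIII:8802072-8802272: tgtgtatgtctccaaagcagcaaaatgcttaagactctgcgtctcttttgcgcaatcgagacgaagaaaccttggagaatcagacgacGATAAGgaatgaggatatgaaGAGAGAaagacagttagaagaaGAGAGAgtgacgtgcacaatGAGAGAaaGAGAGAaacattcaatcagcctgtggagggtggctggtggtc

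In the egl-27 intronic window, CAATTA at chrII:6835703-6835708 and TAATTG at chrII:6835707-6835712 overlap by a pair of bases and start 11 and 7 bp before the summit. The strongest egl-27 window has CAATTA starting 18 bp before its summit and the second intronic window has it 27 bp before. The cbp-1 window has no core and its TCTCTC starts 69 bp after the summit. The first zfp-1 window has GAGAGA starting 5 bp before the summit. The last zfp-1 window has GATAAG 12 bp before the summit and 4 GAGAGA matches between 9 and 59 bp after it.

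The authors deposited a list cut at an irreproducible discovery rate (IDR), a measure of how reproducibly peaks rank between replicates, and relaxed lists of peaks and background. The IDR list held 1358 peaks, the pooled list 30000 intervals, and the lists of replicates 1 and 2 held 28214 and 30000. Signal is the enrichment value of the authors' peak caller, whose scale is not given. It ran from 23.2 to 190.0 in the IDR list, with a median of 33.5. The median signal was 6.05 in the pooled list, 3.79 in that of replicate 1 and 3.5 in that of replicate 2, and since pooled and replicate lists may not share a scale, pooled values are not compared with replicate values. No file gives read counts, so the depth behind a value is unknown. A top interval of a list is here among its 1358 of highest signal, which started at 13.6 in replicate 1 and 13.3 in replicate 2.

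CEH-16 peaks lay at 4 of the 10 genes: egl-27 with 7, zfp-1 with 4, and cbp-1 and lin-53 with 1 each, 13 peaks in all. The other 6, lin-40, let-418, chd-3, hda-1, dcp-66 and mep-1, had no IDR peak in their window. Of all protein-coding genes, 14.4% had an IDR summit in the gene or within 5 kb of it, and the count at the 10 genes is set beside that share without being read against it, because the genes were chosen on these peaks. The same 4 genes had a summit within 1000 bp of one of their annotated transcript 5′ ends, against 4.74% of all protein-coding genes. Protein-coding transcripts start at 14 positions in egl-27 and at 9 in zfp-1, where only internal 5′ ends were that near. The part of the number of 5′ ends was not tested. The 10 genes are also longer than most, with a median of 6.11 kb against 2.03 kb for all protein-coding genes, and the part of gene length in the count was not tested. Every 31-base word of the 13 peaks occurs once in the genome.

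**Figure D1:**
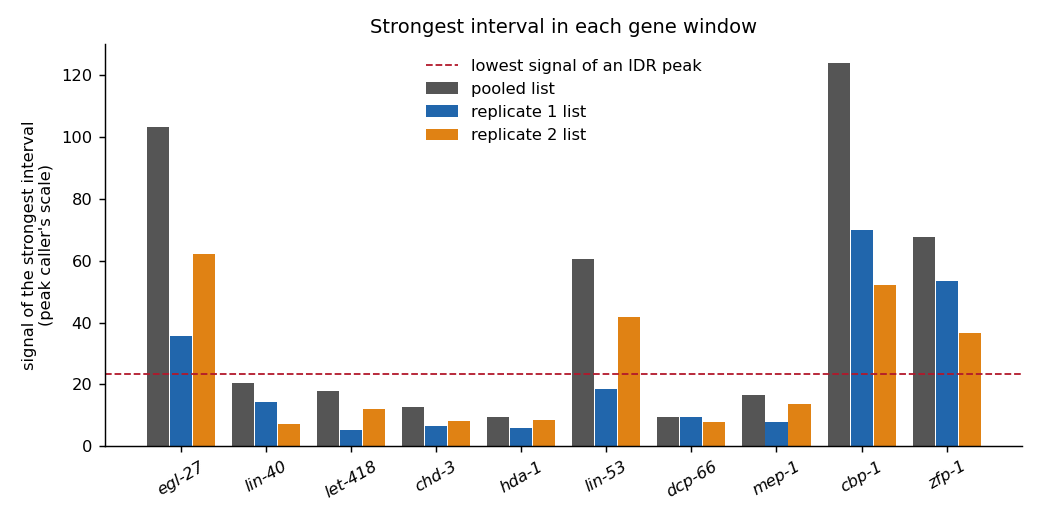
Signal of the strongest interval in the window of each of the 10 genes, in the pooled, replicate 1 and replicate 2 lists. The dashed line is the lowest signal of any IDR peak (23.2). It is a rough guide to the pooled bars only, because pooled and IDR signals of the same peak differ. The pooled bars of egl-27, lin-53, cbp-1 and zfp-1 pass the line, from 60.5 to 123.9, and those of the other 6 genes lie between 9.34 and 20.4.

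Of the MTA genes, egl-27 had peaks and lin-40 had none. egl-27 (WBGene00001194, chrII:6835008-6847908, plus strand) has 24 annotated transcripts that start at 14 positions, and its window held 7 IDR peaks, 5 upstream and 2 in introns. The strongest, at chrII:6827434-6827729, had signal 98.1, rank 27 of the IDR list. It lay in intergenic sequence 7426 bp upstream of the first 5′ end, with 35.6 in replicate 1 and 62.1 in replicate 2. The next, at chrII:6835566-6835861, had signal 71.8, with 30.5 and 42.1 in replicates 1 and 2. Its summit was in an intron, 706 bp downstream of the first 5′ end, 242 bp downstream of the fifth, where 4 transcripts start, and 2216 bp upstream of the next.

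The remaining egl-27 peaks were weaker. Upstream, peaks with summits 11559, 10899, 9054 and 5777 bp before the first 5′ end had signals of 43.9, 23.2, 47.4 and 34.2. The second of these, with 9.97 in replicate 1 and 13.1 in replicate 2, was close to the lowest signal in the IDR list. The peak 9054 bp upstream was the only one of the 7 at egl-27 that was higher in replicate 1, with 27.6 against 14.8 in replicate 2. The other intronic peak, at chrII:6838431-6838726, had signal 24.7, with 7.68 in replicate 1 and 15.5 in replicate 2. Its summit was 3571 bp downstream of the first 5′ end, 649 bp downstream of the start of 3 transcripts and 1607 bp upstream of the next start. Its summits in the 2 replicates were 143 bp apart, the widest gap among the 13 peaks, whose median was 18 bp.

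**Figure D2:**
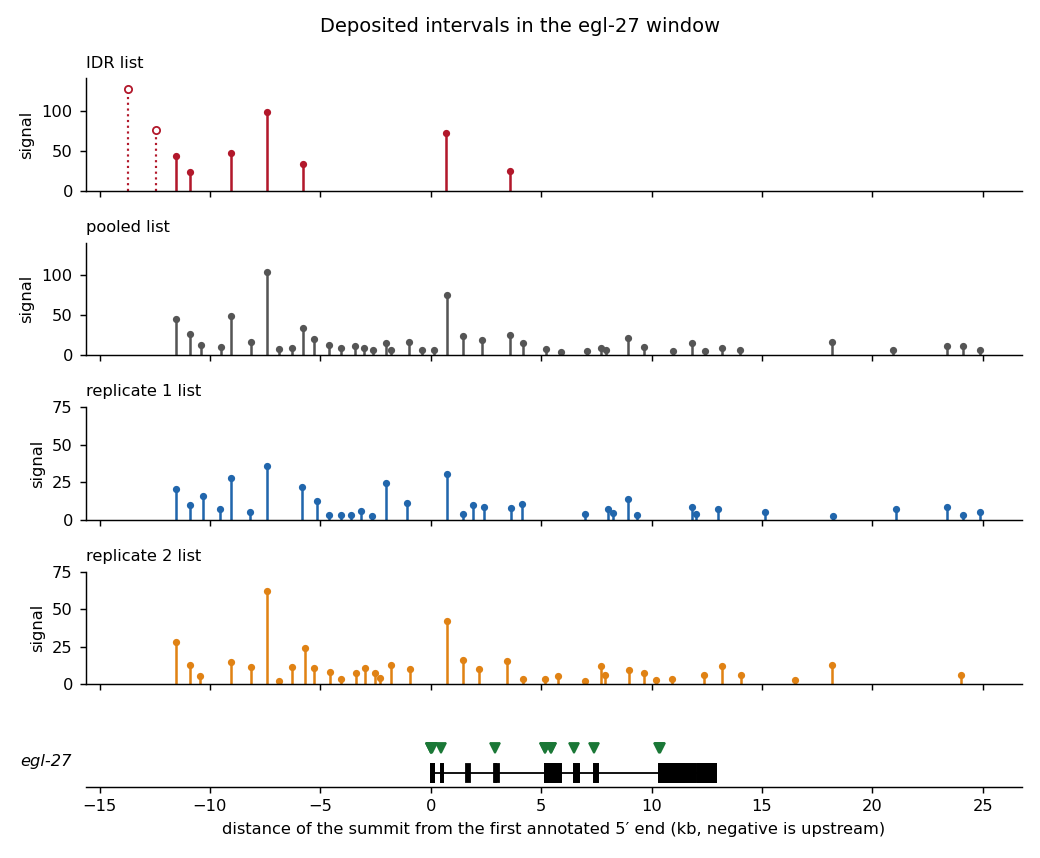
Signal of each deposited interval in the egl-27 window against the distance of its summit from the first annotated 5′ end, in the IDR, pooled, replicate 1 and replicate 2 lists, with exons as black boxes and annotated 5′ ends as green triangles. Filled red points are the 7 IDR peaks of the window, and open points with dotted lines are the peaks 12435 and 13706 bp upstream, just outside it, with signals of 75.9 and 127.3.

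The 12 kb limit fell inside a run of peaks. The outermost peak within it was 11559 bp upstream (signal 43.9), and the next ones, not counted among the 13, were 12435 and 13706 bp upstream. Their signals were 75.9, with 47.6 and 39.1 in replicates 1 and 2, and 127.3, with 82.5 and 46.3. The peak of 127.3, at chrII:6821181-6821436, ranked 6 in the IDR list, above every counted egl-27 peak. Its window held TAATTG. All 7 upstream peaks, these 2 included, lay in the 18.6 kb between egl-27 and the end of snt-1, a synaptotagmin gene on the same strand. That stretch has no other protein-coding gene in the annotation, but 20 noncoding RNA genes and 1 pseudogene. The outermost counted summit was inside exons of the noncoding RNA genes F31E8.8 and F31E8.14, and noncoding RNA 5′ ends lay within 1000 bp of all 5 counted upstream summits. egl-27 owned the nearest protein-coding 5′ end for each of them, which does not show that it is the gene they act on.

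Within 5 kb, the limit used for the other 9 genes, egl-27 had 2 IDR summits, and 549 protein-coding genes (2.75%) had 2 or more. With 12 kb added to either side, the wider limit given to egl-27 with its peaks known, it was among 6 protein-coding genes (0.03%) with 7 or more. These shares describe the counts that chose the gene. The genes most like it by that number, in the 1 IDR list, were ztf-14, with 7 peaks whose signals sum to 377.8 against 343.3 at egl-27, and Y65B4BL.1, icd-2, psf-3 and Y65B4BM.3, each with 7 and a sum of 281.1. The last 4 lie beside each other and share the same peaks. egl-27 is 12.9 kb long, against 0.797 to 3.35 kb for ztf-14 and these 4, so its window was wider. The part of gene length in this count was not tested.

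The relaxed lists held more intervals per kb at egl-27 than at the other 9 genes. Its window had 43 pooled intervals, or 1.17 per kb, against 0.299 per kb in the genome and 0.371 to 0.826 per kb at the other 9 genes. A pooled interval of signal 24.3 in an intron, 1459 bp downstream of the first 5′ end, overlapped no IDR peak, with 4.26 in replicate 1 and 16.2 in replicate 2. Its signal was above the IDR minimum of 23.2 but below 25.1, where the top pooled intervals started. The IDR and pooled lists give different signals for the same peak, as with 23.2 and 26.1 for the peak 10899 bp upstream. An interval 2011 bp upstream in replicate 1, in an exon of the noncoding RNA gene F31E8.19, had 24.5 there and overlapped a pooled interval of 15.9. The replicate 2 interval that overlapped it at the edge had 12.6, with its own summit 1777 bp upstream in intergenic sequence.

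lin-40 (chrV:3704988-3712796), the other MTA gene, had no IDR peak, and its nearest was 649.0 kb away. Its strongest pooled interval had signal 20.4, rank 1890, 1744 bp upstream of its nearest 5′ end. That interval had 14.2 in replicate 1 and 7.31 in replicate 2. A second interval, 887 bp upstream in replicate 1, had 14 there and overlapped none in replicate 2. Both were top intervals of replicate 1, so lin-40 gained a peak when that list was used alone.

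The windows of the Mi-2 ATPase genes held weak intervals. At let-418, whose product acts in NuRD and, with MEP-1, in the MEC complex, the strongest pooled interval had signal 17.8 and lay past the end of the gene, 6172 bp downstream of its 5′ end. Its summit was in the 0.999 kb between let-418 and srh-76, the next protein-coding gene, on the same strand. The interval cannot be given to either gene. It had 11.9 in replicate 2 and overlapped no interval of replicate 1. The nearest IDR peak, of signal 38.0, was 11.8 kb from the gene. At its paralogue chd-3 the strongest pooled interval, 586 bp upstream of the 5′ end, had signal 12.7, with 6.68 in replicate 1 and 8.22 in replicate 2. Its nearest IDR peak was 37.4 kb away.

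Among the deacetylase, histone-binding and p66 genes, lin-53 alone had an IDR peak. lin-53 (chrI:9618196-9619760, minus strand) encodes an RbAp46/48-like protein, and its peak at chrI:9619859-9620154 had signal 54.8, with 18.6 in replicate 1 and 41.8 in replicate 2. The summit was 247 bp upstream of lin-53 and 220 bp upstream of nra-2, a nicalin-like gene on the other strand, in the 0.466 kb between them, so the peak cannot be given to either gene. The RbAp gene rba-1 lies 0.088 kb past the other end of lin-53, and the same peak is 1900 bp upstream of its 5′ end. The nearest IDR peak outside the lin-53 window, of signal 83.8, was 6.33 kb from the gene.

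At hda-1, the class I histone deacetylase gene, the strongest pooled interval had signal 9.46, in an intron of the neighbouring gene ril-1, 1587 bp upstream of hda-1. It had 6.03 in replicate 1 and 7.75 in replicate 2. A peak of signal 174.4 lay 18.5 kb from hda-1, outside its window. At dcp-66, the p66-like gene, the strongest pooled interval had 9.34, 1385 bp upstream, with 7.92 in replicate 2 and no overlap in replicate 1. The nearest IDR peak to dcp-66 was 6.32 kb away with signal 30.3, just outside its 5 kb window. At mep-1, which encodes the zinc finger partner of LET-418, the strongest pooled interval had 16.7, 213 bp upstream, within exons of the noncoding RNA genes M04B2.11 and M04B2.13. Its replicate values were 5.89 in replicate 1 and 13.6 in replicate 2, where it was a top interval.

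For scale, the median over all protein-coding genes of the strongest pooled signal within 5 kb was 8.98, so the pooled maxima of these 6 genes, from 9.34 at dcp-66 to 20.4 at lin-40, were above the middle of the genome. A stronger pooled interval was found at 20.0% of genes for lin-40, at 47% for hda-1 and at 47.7% for dcp-66. For cbp-1 that share was 0.125%, for egl-27 (within 5 kb only) 1.29%, for zfp-1 1.55% and for lin-53 2.24%. Longer genes have wider windows, and the part of gene length in these maxima was not tested.

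cbp-1 (WBGene00000366, chrIII:9766509-9774825, plus strand) had a single IDR peak, and it was the strongest at the 10 genes. At chrIII:9765452-9765747 it had signal 118.1, rank 9 of the IDR list, with 69.9 in replicate 1 and 52.1 in replicate 2, ranks 14 and 32 of those lists. The summit lay in intergenic sequence 909 bp upstream of the first of 3 annotated 5′ ends, beyond a 500 bp limit. Noncoding RNA genes R10E11.10 and R10E11.12 also have a 5′ end within 1000 bp, at chrIII:9765109 and chrIII:9765005. Both are nearer the summit, at chrIII:9765600, than the cbp-1 5′ end. No second strong interval was near: the next pooled signal in the window was 16.2, and the nearest other IDR peak was 49.1 kb from the gene.

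zfp-1 (WBGene00006975, chrIII:8791535-8806305, plus strand), which encodes the AF10-like protein, had 4 IDR peaks, all in its introns. They lay 3403, 4366, 5885 and 10637 bp downstream of the first 5′ end. The first, at chrIII:8794790-8795085, had signal 66.5, the highest of the 4 in the IDR list, and the last, at chrIII:8802024-8802319, had 64.9. Those between had 41 and 24.1. In the pooled list the last was the highest, with 67.8. The first was 529 bp downstream of the nearest 5′ end of the gene, and the last 2 were 978 and 647 bp upstream of internal ones, while the second was 1492 bp from any. Within 5 kb, 34 protein-coding genes had 4 or more IDR summits.

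The zfp-1 peaks did not rank alike in the replicates. The first had 12.8 in replicate 2 against 53.5 in replicate 1, a log2 ratio of -2.07, and the second 12.7 against 30.9 (-1.28). The last had 36.5 against 27.7 (0.40) and the third 13.8 against 11.1 (0.32). A ratio as low as that of the first peak occurred at 43 (3.22%) of the 1337 IDR peaks with an interval in both replicates, and as low as that of the second at 134 (10%). A pooled interval of signal 31.2 in an intron 8638 bp downstream, with 25.4 in replicate 1 and 7.81 in replicate 2, overlapped no IDR peak, nor did one of 24.6 that lay 2650 bp upstream, in an intron of ztf-1. Genome-wide, 214 of the 1543 pooled intervals at or above the IDR minimum overlapped no IDR peak. Pooled and IDR signals of the same peak differ, so that minimum is only a rough limit for pooled intervals.

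**Figure D3:**
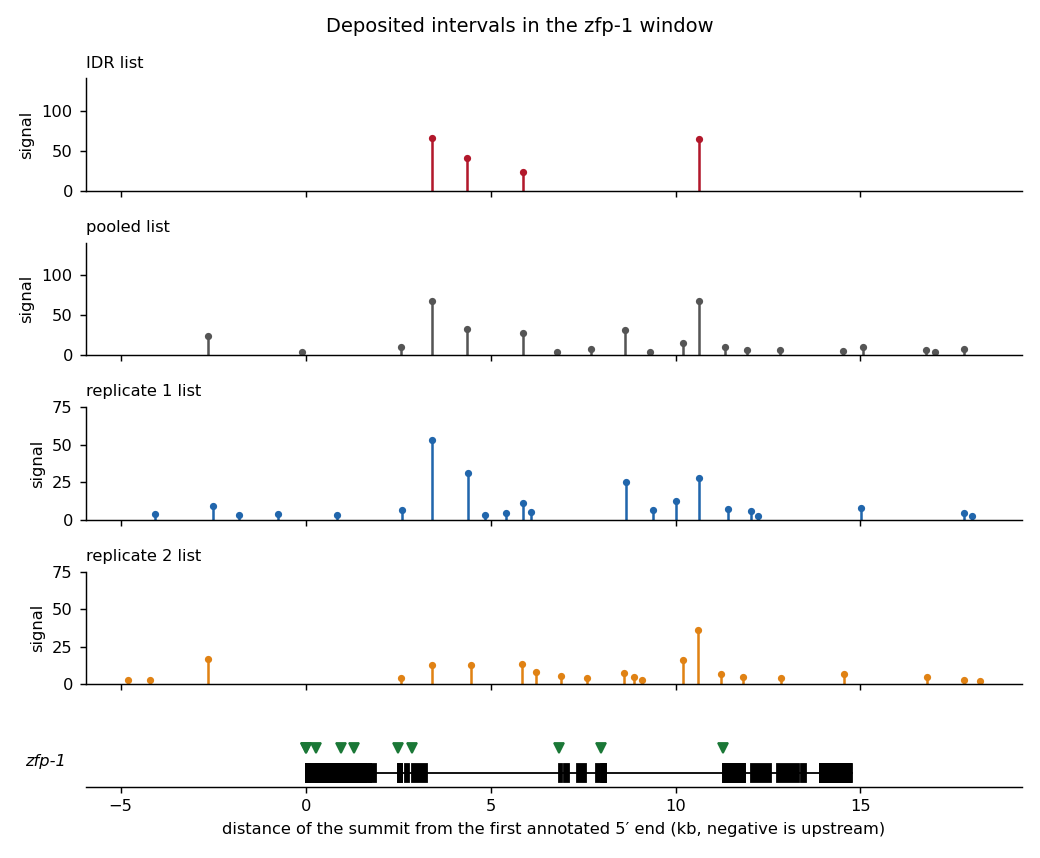
Signal of each deposited interval in the zfp-1 window against the distance of its summit from the first annotated 5′ end, drawn as for egl-27, with exons as black boxes and annotated 5′ ends as green triangles. The peak 3403 bp downstream is the highest of the window in replicate 1 (53.5), and the peak 10637 bp downstream is the highest in replicate 2 (36.5).

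Of the 13 peaks, 8 overlapped a top interval in both replicates, against 720 (53%) of all 1358 IDR peaks. They were 5 of the 7 at egl-27, those at lin-53 and cbp-1, and the last at zfp-1. Another 4 overlapped a top interval in 1 replicate and 1, at egl-27, in neither. Signal was higher in replicate 2 at 9 of the 13, 6 of them at egl-27, and at 620 of the 1337 IDR peaks with both values, where the median log2 ratio of replicate 2 to replicate 1 was -0.08. The lin-53 peak had the highest ratio of the 13, 1.17, and 10.9% of the 1337 had one as high. With 2 replicates no test of these differences was made.

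**Figure D4:**
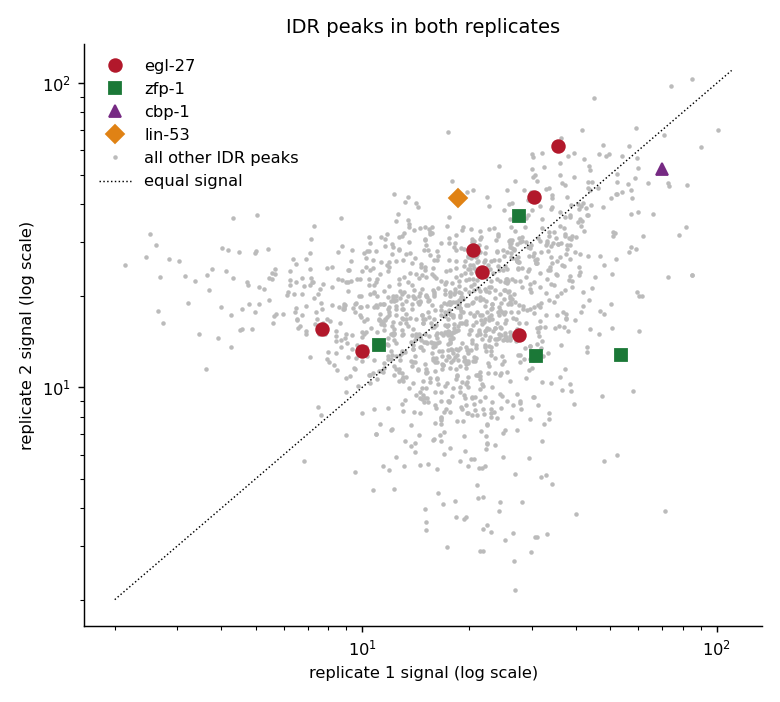
Replicate 2 signal against replicate 1 signal, on log axes, for the 13 peaks at egl-27, zfp-1, cbp-1 and lin-53 (coloured symbols) and all other IDR peaks with an interval in both replicates (grey points), with a dotted line of equal signal. The zfp-1 peak with 53.5 in replicate 1 and 12.8 in replicate 2 lies farthest below the line among the 13, and the lin-53 peak with 18.6 and 41.8 farthest above it.

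The homeodomain core was found within 100 bp of 4 of the 13 summits, against 15.4% of all IDR windows (209 of 1358). All 4 were at egl-27, and each match was CAATTA or else TAATTG. The full palindrome TAATTA was in 0 of the 13 and in 6.41% of all IDR windows. Within 50 bp the core was at 3 of 13 summits, against 7.07% of all. GAGAGA, counted on either strand, was within 100 bp of 9 of 13 summits, against 40.8% of all IDR windows, namely 4 at egl-27, all 4 at zfp-1 and the 1 at cbp-1. Of the 7 egl-27 windows, only the strongest held both a core and a GA repeat. GATAAG was in 1 window (12% of all IDR windows) and CACGTG in 1 (5.96%). Windows held 37.3 to 52.7% G and C, against a median of 44.8% in all IDR windows. A match is a description of the letters and does not show a bound site.

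Chromatin genes outside the 10 had peaks too. Lists of 9 kinds of chromatin regulator, named from textbook knowledge but with earlier results of these data known, held 103 symbols, of which 101 matched the annotation. An IDR summit lay in the gene or within 5 kb of it for 37 (36.6%), against 14.4% of all protein-coding genes, and within 1000 bp of a 5′ end for 22 (21.8%), against 4.74%. These shares are a description. The 37 include rba-1, whose only peak is the lin-53 peak described above. These genes are longer than most, with a median of 4.49 kb against 2.03 kb, and the part of length in these shares was not tested. No relative of NuRD or deacetylase gene had a summit within 1000 bp of its own 5′ end (0 of 7 and 0 of 12), while 4 and 4 had one within 5 kb, hda-2 and hda-3 in both lists. None of the 5 DOT1 family genes had one within 5 kb. Lists this short can hold 0 such genes at the shares of all protein-coding genes given above. These counts of 0 are therefore not read as an absence particular to these classes.

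Acetyltransferase and acetyl-lysine reader genes had a summit within 1000 bp at 4 of 12. bet-2, a bromodomain gene, had signal 62.8, with 40.1 and 31.1 in replicates 1 and 2, and hat-1, an acetyltransferase gene, had 53.5, with 27.5 and 26.8. epc-1, an Enhancer of Polycomb gene, had 48.3 and pcaf-1, a GCN5-like gene, had 30. Of 12 genes of the SWI/SNF remodelling complex, 4 had one: pbrm-1 (72.1, with 60.2 and 20 in replicates 1 and 2), let-526 (45.9), swsn-6 (40.6) and swsn-3 (34.6). Of the 7 other remodeller genes, chd-7 (50.1) and nurf-1 (31) had one, the second with 33.1 in replicate 1 and 3.28 in replicate 2.

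DREAM and synMuv genes, which include the worm Retinoblastoma pathway, had a summit within 1000 bp at 7 of 19. lin-54, which encodes a DNA-binding subunit of DREAM, had 86.2, but rpl-12 owned the nearest 5′ end. lin-9 had 44.7, lin-36 36.5, lin-15B 31, efl-1, an E2F gene, 29.2, lin-38 28.8 and lin-35, the Retinoblastoma gene, 28.3. Histone methylation genes had one at 4 of 21: set-16, an MLL-like methyltransferase gene (89.7, nearest 5′ end drr-2), set-26 (45.3, nearest tsr-2), jmjd-1.2 (35.2, nearest F29B9.11) and rbr-2, a demethylase gene (32.3). sor-1 (26.4) was the only one of 8 Polycomb-like and MES genes. At 5 of the 22 genes a neighbour owned the nearest 5′ end, swsn-6 being the fifth (nearest perm-3), and 13 of the 22 peaks overlapped a top interval in both replicates. Several of the rest were shared too. The hat-1 and swsn-3 summits lay in introns of M03C11.3 and cox-6B. Another gene also had a 5′ end within 1000 bp at, among others, lin-35 (vps-51), efl-1 (fbxa-90), lin-38 (mrpl-37) and lin-36 (F44B9.11). Such shared peaks cannot be given to 1 gene.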

How the data were processed

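Per the deposited README files, the authors made the relaxed lists, per replicate and pooled, from ce11 alignments and 1 further input that they do not describe, and the optimal IDR list from those 3 lists. The sources used here name no aligner or peak caller, and the IDR cut is also not given. The deposited signal is on the caller's scale. The deposited −log10 q-value has 1 value in the whole IDR list and was not used for ranking. The ce10 lists were not used.

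Summits are column 2 plus column 10, given 1-based. Members and gene lists were chosen with earlier results of these data known. Python 3.11.15 and pandas 2.3.3 assigned summits to genes of Ensembl release 115. A replicate value is that of the overlapping interval (at least 1 bp) with the nearest summit. The named genes are the 10, owners of the nearest protein-coding 5′ end of each peak, chromatin genes with a summit within 1000 bp, and up to 5 genes most like egl-27 by number of summits. The GA, GATA and E-box motifs were added after the core motif. Counting was tested on simulated data. Many worm 5′ ends are trans-splice sites.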

Additional observations from a re-analysis of the deposited data

How the results depend on the processing

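With 5 kb or 2 kb for every gene, the windows held 8 peaks in place of 13, because 5 of the egl-27 peaks lie further upstream, and 4 genes still had a peak. With 12 kb for every gene 16 peaks lay at 6 genes. At that limit 25.7% of all protein-coding genes had an IDR summit, against 14.4% at 5 kb. Leaving out a replicate (the top intervals of the other list) gave 14 to 16 peaks at 5 genes each, mep-1 being added without replicate 1 and lin-40 without replicate 2, 5 genes within 1000 bp of a 5′ end, 34 to 37 chromatin genes and 3 to 4 windows with a core. The number of genes with a summit at a 5′ end was 2 (egl-27 and lin-53) at 500 bp and 4 at 2000 bp, against 4 at 1000 bp. Among IDR peaks at or above the median signal 22 chromatin genes had a summit, against 37. That setting uses fewer peaks, and the share of all protein-coding genes under it is not given here. The drop is therefore not read as a trait of chromatin genes. All 13 peaks overlapped an interval of each replicate list when any interval counted, against 8 for top intervals. So did 1337 of all 1358 IDR peaks. TAATTA alone was in 0 windows, against 4 for the core. The strongest signal in the pooled list, which was an input to the IDR list, was 103.2 at egl-27, 60.5 at lin-53, 123.9 at cbp-1 and 67.8 at zfp-1. No paired analysis was possible because there is only 1 group. Depth is unknown, and 2 replicates limit the precision of every value.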
